A study of Homo sapiens with 6 samples.

Results

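The unfolded protein response and ATF4 genes analysed here were 38 named genes of the 44591 listed for each library. They were taken by gene symbol and were separated into ER chaperones and folding enzymes (13 genes), ATF4/CHOP targets (7 genes), ATF4/CHOP transcription factors (7 genes), eIF2 kinases and phosphatase subunits (4 genes), ER-associated degradation genes (4 genes) and the IRE1 and ATF6 sensors with XBP1 (3 genes). Poly(A)-enriched RNA was sequenced from A2780, an established human ovarian cancer cell line labelled wild type, grown in DMEM with fetal bovine serum. The 3 r-CRMP2 libraries came from cells given human recombinant CRMP2 (collapsin response mediator protein 2) at 40 ng/ml for 48 h, and the 3 untreated libraries from cells of the same line and time point without it. The comparison asks what the recombinant protein did to transcript levels in the cancer cells. No source used here says that the replicates were separate cultures, so p-values measure the spread between these libraries, which may be technical.

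When misfolded proteins build up in the endoplasmic reticulum (ER), the sensors PERK, IRE1 and ATF6 are activated. ATF6 and the spliced form of XBP1 switch on chaperones and degradation factors. PERK phosphorylates the initiation factor eIF2, which lowers protein synthesis while translation of ATF4 goes up, and ATF4 with its target CHOP (gene DDIT3) drives genes of amino acid supply, redox balance and cell death. The eIF2 branch can also be started without ER stress, by kinases such as GCN2 that sense amino acid shortage, so chaperones and ATF4 targets need not move together.

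Among the members, most chaperones were higher and most ATF4/CHOP targets lower with r-CRMP2. Of 13 chaperones and folding enzymes, 11 rose and none fell, with a median log2 fold change of 0.49 (r-CRMP2 over untreated), although 7 rose and 1 fell when counts were scaled by library size alone. Of the 6 ATF4/CHOP targets tested, 4 fell and 1 rose, with a median of -0.53 (5 fell and 1 rose by library size alone). Among 29 other ATF4/CHOP targets tested, however, 16 rose and 6 fell (12 rose and 12 fell by library size alone). ATF4 itself did not pass the test. The phosphatase subunit PPP1R15A (4.79-fold), the secreted glycoprotein STC2 (3.27-fold) and the transcription factor CEBPB (2.88-fold) had the highest fold changes of all members. "Rose" and "fell" are used here for an adjusted p under 0.05 in the quasi-likelihood test of edgeR, adjusted by the Benjamini-Hochberg method over all 16222 genes tested, and every adjusted p printed is from that test.

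In all, 37 members passed the filter on low counts, of which 19 rose, 8 fell and 10 did not pass the test. Across all genes tested, 28.2% rose and 30.1% fell, so a call in itself was common in this comparison. At the stricter pair of thresholds (adjusted p under 0.05 and a log2 fold change beyond 1 or -1), 4 members rose and 2 fell, beside 5.12% and 8.86% of all genes. The r-CRMP2 libraries all lay above the untreated ones for 19 members (30.9% of all genes) and all below for 7 members (33.3%). The median log2 fold change was 0.22 over the members and -0.03 over all genes tested.

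The direction of many small changes depended on how libraries were scaled. Levels below are TMM-normalised CPM unless TPM (per length) is named. For CPM, counts were scaled by the library total multiplied by that library's TMM factor, and not per length. The TMM factors were 1.10 to 1.12 in untreated and 0.879 to 0.922 in r-CRMP2 libraries, and scaling by library size alone moved the median of all genes by -0.31, to -0.34. Under that scaling 10 members rose and 17 fell. The share of all genes called under it is not given here. Counts for this scaling, above and below, therefore lack that background and include the shift of all genes. The plot of the members under both scalings shows the same step for each gene. In bulk RNA, a change in the number of cells of a kind and a change in RNA per cell cannot be told apart.

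**Figure D1:**
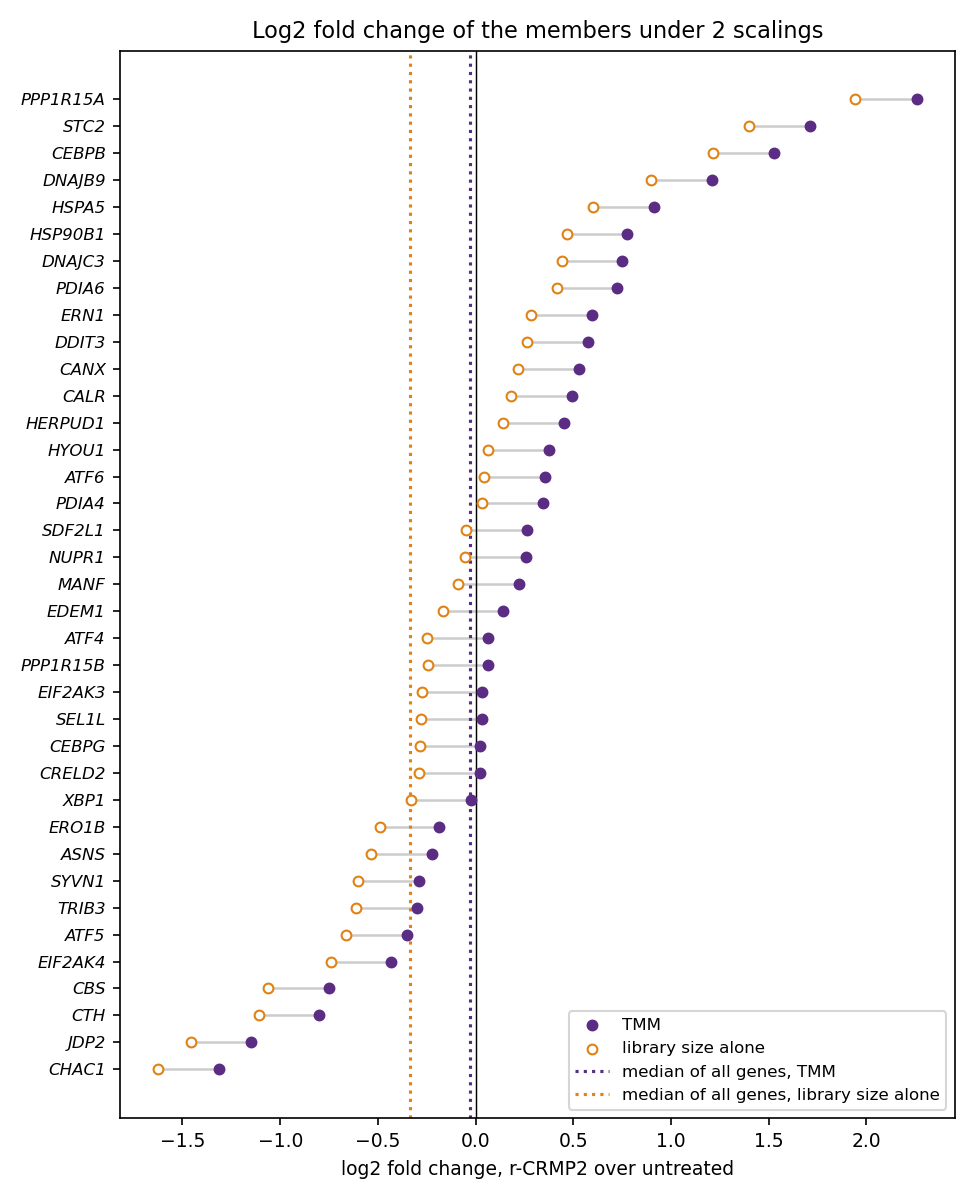
Log2 fold change (r-CRMP2 over untreated, x axis) of the 37 members tested, one row per gene, with TMM scaling (filled) and library size alone (open); dotted lines mark the median of all genes under each. PPP1R15A, STC2, CEBPB and DNAJB9 lie at the right and CHAC1 and JDP2 at the left under both, while 10 genes near 0 have opposite signs under the 2 scalings.

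The libraries held 21888530 to 25711353 counts, and replicates differed by more than sampling noise. Of the epithelial markers, KRT8 lay at 1249 to 1329 CPM and KRT18 at 1218 to 1494 CPM over the 6 libraries, whereas CDH1 had at most 5 counts and WT1 at most 3. The summed TPM of 8 epithelial markers was 3323 to 3431 in untreated and 2821 to 3073 in r-CRMP2 libraries, and that of 9 fibroblast markers 244 to 278 and 173 to 186. These sums carry no TMM factor and can differ in direction from the calls. KRT18 went from 1986 to 1816 in mean TPM but rose under TMM (log2 fold change 0.20, edgeR adjusted p = 0.011). KRT8 went from 1362 to 1110 TPM and did not pass the test (0.03). The sum of 4 leukocyte markers was 30.5 to 35.6 and 79.2 to 80.0 TPM. Nearly all of it was CD68, a lysosomal protein gene that rose by 1.69 on the log2 scale, while PTPRC, the defining leukocyte marker, had at most 4 counts in any library and CD3E at most 2. The collagen gene COL1A1 was at 394 to 458 CPM in untreated and 302 to 327 CPM in r-CRMP2 libraries. It made up most of the fibroblast sum, with a mean of 172 of 257 TPM in untreated and 104 of 181 TPM in r-CRMP2 libraries. Of the fibroblast markers COL1A1 and PDGFRB fell, while COL1A2, LUM, PDGFRA and THY1 rose. Of the markers tested, 1 of 6 epithelial, 4 of 8 fibroblast and 1 of 2 leukocyte genes rose, and 1, 2 and 0 fell. The part of these markers in the results was not tested.

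Of the eIF2 kinases, EIF2AK3 (PERK, the ER stress kinase) lay at 21.0, 21.1 and 22.6 CPM in untreated and at 23.3, 20.3 and 22.6 CPM in r-CRMP2 libraries. The groups overlapped, and the log2 fold change of 0.03 ± 0.07 (SE, n = 3 per group) did not pass edgeR's test (adjusted p = 0.753). EIF2AK4 (GCN2, the amino acid shortage kinase) fell, from 82.1 to 89.5 CPM down to 61.2 to 69.0 CPM, with a log2 fold change of -0.43 ± 0.07 (adjusted p = 2.12e-05). EIF2AK3 overlaps LOC101928371 on the opposite strand, at a mean of 4.04 CPM in untreated libraries.

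PPP1R15A (chr19:49375649-49379319, hg19) encodes the inducible subunit that brings protein phosphatase 1 to eIF2 and so reverses its phosphorylation. It was at 20.2, 26.6 and 29.6 CPM without r-CRMP2 and at 101, 141 and 125 CPM with it. Each treated library was above every untreated one, and the log2 fold change of 2.26 ± 0.22 (edgeR adjusted p = 1.34e-11) was the highest of the members. Its constitutive relative PPP1R15B was at 149 to 180 CPM and at 159 to 179 CPM, and did not pass the test (0.06 ± 0.10, adjusted p = 0.470). By library size alone both PPP1R15B (-0.24, adjusted p = 0.00783) and EIF2AK3 (-0.28, adjusted p = 0.0147) passed as lower. The promoter windows of RefSeq (GRCh38.p14, 250 bases before to 50 after each start) held one of 4 stress-response motifs in some members, searched on both strands. PPP1R15A was the 1 member of 37 matched with the palindromic cAMP response element TGACGTCA, which stands in 1.85% of all 35116 windows. It is shown because this gene had the highest fold change, with the element in capitals (58 bases before the start, chr19:48872353-48872380, plus strand).
PPP1R15A: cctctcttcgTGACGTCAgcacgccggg

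The ATF4/CHOP transcription factors moved in different directions. Of 7, 3 rose (42.9%) and 2 fell (28.6%), beside 28.2% and 30.1% of all genes tested. By library size alone CEBPB was higher and 4 were lower (ATF4, ATF5, CEBPG and JDP2). ATF4, the bZIP factor translated more when eIF2 is phosphorylated, was at 326, 324 and 335 CPM in untreated and at 342, 362 and 326 CPM in r-CRMP2 libraries. The groups overlapped, and the difference did not pass edgeR's test (log2 fold change 0.07 ± 0.05, adjusted p = 0.379), while library size alone gave -0.25 (adjusted p = 0.000942). Counts of RNA do not measure its translation. DDIT3 (CHOP) rose from 6.65, 8.76 and 10.7 CPM to 12.6, 15.0 and 11.5 CPM. The lowest treated library was above the highest untreated one, with a log2 fold change of 0.58 ± 0.23 (adjusted p = 0.00253), but under library size alone it was 0.26 and did not pass (adjusted p = 0.144). DDIT3 overlaps MARS on the opposite strand, which fell by 0.68 on the log2 scale, and whether the counting used strand is not given in the sources used here.

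CEBPB (chr20:48807120-48809227, hg19), a C/EBP factor of inflammatory and stress responses that dimerises with CHOP, rose. Its levels were 227, 190 and 190 CPM without r-CRMP2 and 485, 614 and 651 CPM with it, a log2 fold change of 1.53 ± 0.16 (edgeR adjusted p = 1.05e-10). No treated library came near the untreated range. CEBPB-AS1, which overlaps it on the opposite strand, was higher as well (24.6 to 63.6 CPM in the mean, 1.37 on the log2 scale, adjusted p = 1.60e-09), so reads of the pair may not be separable.

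JDP2 (chr14:75894509-75939404, hg19), a repressor of AP-1 activity, fell from 19.3, 18.6 and 20.6 CPM to 9.22, 8.59 and 8.58 CPM. The groups were far apart for their spread, and the log2 fold change was -1.15 ± 0.06 (edgeR adjusted p = 1.29e-08). ATF5, another bZIP factor under eIF2-dependent translation, was at 7.80, 10.6 and 10.9 CPM against 7.16, 7.94 and 7.88 CPM. It fell (-0.35 ± 0.16, adjusted p = 0.0372), but its groups overlapped. That call was lost in DESeq2 (adjusted p = 0.0680) and without any single library other than untreated replicate 1, where the log2 fold change was -0.37 to -0.26 and adjusted p reached 0.165. ATF5 overlaps NUP62 on the opposite strand, at a mean of 87.9 CPM in untreated libraries.

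NUPR1, a small chromatin-associated stress protein, was at 16.7 to 22.7 CPM in untreated and 21.1 to 24.6 CPM in r-CRMP2 libraries. Although it rose by the test (0.26 ± 0.15, edgeR adjusted p = 0.0437), the groups overlapped, and library size alone turned its sign (-0.053, adjusted p = 0.693). The call was lost also with a minimum of 10 counts in every library (adjusted p = 0.0575), without untreated replicate 1 (0.17 on the log2 scale, adjusted p = 0.218), without untreated replicate 2 (0.22, 0.145), and without r-CRMP2 replicate 1 (0.26, 0.0660) or replicate 2 (0.22, 0.114). CEBPG, a C/EBP partner of ATF4, was at 19.7 to 23.0 CPM and at 20.3 to 22.9 CPM (0.02 ± 0.08, adjusted p = 0.832), but passed as lower by library size alone (-0.29, adjusted p = 0.0144).

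**Figure D2:**
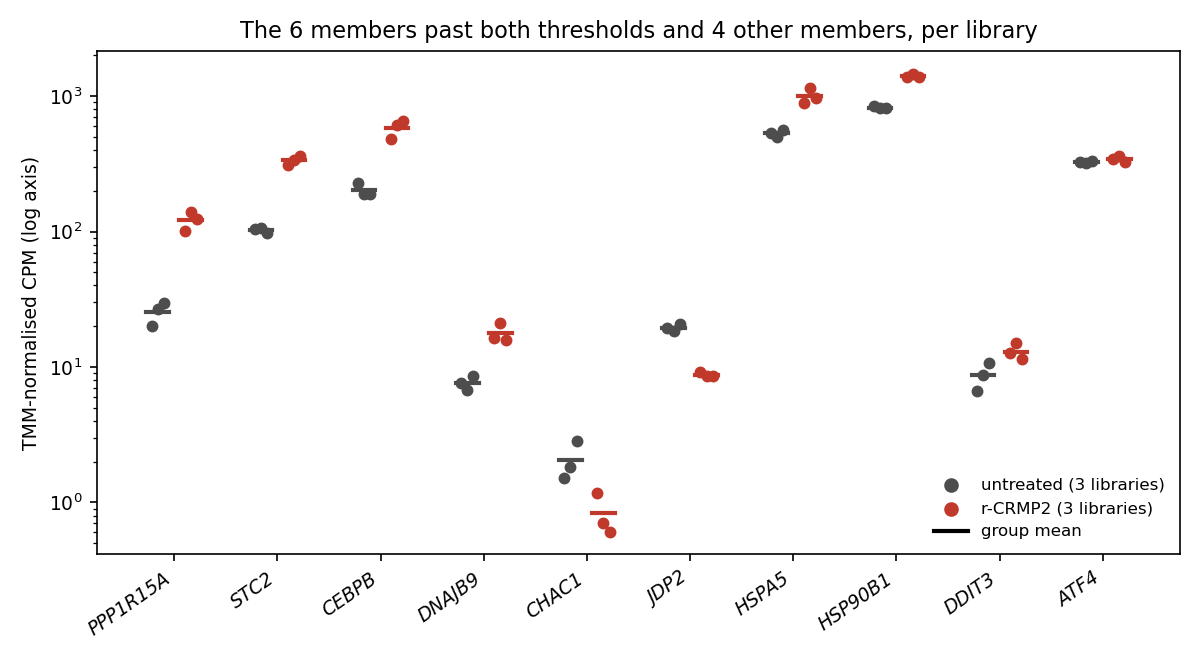
TMM-normalised CPM (log axis) of 10 members in each of the 6 libraries, with a bar at each group mean; gray is untreated and red is r-CRMP2. The groups are apart for PPP1R15A, STC2, CEBPB, DNAJB9, CHAC1, JDP2, HSPA5, HSP90B1 and DDIT3, and overlap for ATF4 (324 to 335 and 326 to 362 CPM).

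Among the ATF4/CHOP targets, CBS, CTH, CHAC1 and TRIB3 fell with r-CRMP2, and under library size alone ASNS did too. CBS, which joins homocysteine and serine to cystathionine, fell from 50.5 to 52.5 CPM down to 28.5 to 31.5 CPM (log2 fold change -0.75 ± 0.05, edgeR adjusted p = 4.39e-08). CTH, which splits cystathionine to release cysteine, fell from 4.60 to 5.30 CPM down to 2.57 to 3.19 CPM (-0.80 ± 0.11, adjusted p = 0.000501). CHAC1 (chr15:41245347-41248717, hg19), a CHOP-arm enzyme that breaks down glutathione, was at 1.51, 1.83 and 2.85 CPM without and 1.17, 0.708 and 0.610 CPM with r-CRMP2. These levels rest on 42, 45 and 78 counts against 25, 14 and 14, and its groups did not overlap. The log2 fold change was -1.31 ± 0.37 (adjusted p = 0.00197), and leaving out each library in turn gave -1.64 to -1.01.

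The pseudokinase TRIB3, a CHOP target that damps ATF4 and AKT, was at 53.8, 51.1 and 56.3 CPM in untreated and at 41.9, 44.5 and 44.5 CPM in r-CRMP2 libraries. All treated values lay below the untreated ones (-0.30 ± 0.05, edgeR adjusted p = 0.00103). ASNS, asparagine synthetase and a common marker of ATF4 activity, was at 18.7, 20.6 and 24.5 CPM against 17.0, 20.2 and 17.6 CPM. The groups overlapped and it did not pass the test (-0.22 ± 0.14, adjusted p = 0.0752), although it did without untreated replicate 1 (-0.31, adjusted p = 0.0231), without r-CRMP2 replicate 2 (-0.29, adjusted p = 0.0310) and under library size alone (-0.54, adjusted p = 0.000348).

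STC2 (chr5:172741726-172756506, hg19) was the one target that rose. Its levels were 105, 106 and 98.3 CPM in untreated and 310, 339 and 362 CPM in r-CRMP2 libraries, a log2 fold change of 1.71 ± 0.07 (edgeR adjusted p = 4.08e-13). The lowest treated library was far above the highest untreated one. VLDLR-AS1, an antisense RNA at VLDLR, had 2, 14 and 6 counts without and 4, 5 and 7 counts with r-CRMP2, below the filter on low counts. Without a filter, its log2 fold change was -0.18 (adjusted p = 0.895). VLDLR, a lipoprotein receptor gene on the opposite strand, rose from a mean of 66.9 ± 7.64 CPM to 110 ± 6.31 CPM (SD, n = 3), by 0.71 ± 0.10 on the log2 scale (adjusted p = 2.14e-07).

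A composite C/EBP-ATF response element, searched as TGATGNAA, stood in 6 member promoters and in 3.62% of all windows. Of these 6 genes 2 fell, 1 rose and 3 did not pass the test. The elements of CHAC1 and JDP2 (both fell), ASNS (not past the test) and HERPUD1 (rose) are shown because they hold the same searched pattern, TGATGCAA in all but ASNS, in genes that differed in direction. Capitals mark the element, and sequences are read on the strand that gives the motif. JDP2 and ASNS have more than 1 listed start, and each distance is to the start whose window holds the element.
CHAC1, 209 bases before the start, chr15:40953252-40953279, minus strand: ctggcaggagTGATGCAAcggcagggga
JDP2, 16 bases before the start, chr14:75427996-75428023, plus strand: tagccggggcTGATGCAAcccgtcccgc
ASNS, 68 bases before the start, chr7:97872459-97872486, minus strand: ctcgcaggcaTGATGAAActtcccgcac
HERPUD1, 176 bases before the start, chr16:56931956-56931983, minus strand: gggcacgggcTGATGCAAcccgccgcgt
The 250 bases before the CHAC1 start (chr15:40953221-40953470, plus strand) give its surroundings, with the element in capitals as it reads on the gene's strand.
CHAC1 upstream: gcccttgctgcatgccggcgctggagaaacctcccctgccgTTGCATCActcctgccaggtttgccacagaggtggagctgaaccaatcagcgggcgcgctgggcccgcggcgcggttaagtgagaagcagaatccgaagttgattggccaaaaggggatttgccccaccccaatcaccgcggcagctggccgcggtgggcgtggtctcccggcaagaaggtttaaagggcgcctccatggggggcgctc

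A longer list of 29 other ATF4/CHOP targets tested did not follow the 6 members, since 16 rose and 6 fell (median log2 fold change 0.34). By library size alone the counts were 12 and 12. DDIT4, an inhibitor of mTORC1, rose from a mean of 918 ± 81.5 CPM to 3242 ± 417 CPM (SD, n = 3), and its log2 fold change was 1.82 (edgeR adjusted p = 4.29e-12). BBC3, a pro-apoptotic BH3-only gene, rose by 1.15 on the log2 scale (adjusted p = 1.83e-08), and KLHL24, a ubiquitin ligase adaptor, by 1.06 (adjusted p = 1.16e-09). SLC7A11, the cystine importer, fell from 59.6 ± 4.32 CPM to 21.1 ± 4.03 CPM, a log2 fold change of -1.50 (adjusted p = 4.83e-10). The other genes of this list that fell were PSAT1 and PSPH of serine synthesis, the amino acid carrier SLC38A2 and the tRNA synthetases NARS and WARS, while SHMT2 and MTHFD2 of mitochondrial one-carbon metabolism rose (0.64 and 0.61). The tRNA synthetase GARS (0.34) and the amino acid transporter genes SLC7A5 (0.34) and SLC3A2 (0.67) also rose, and SLC7A1 did not pass. Under library size alone GARS and SLC7A5 lost the call (0.034 for both). The call of NARS (-0.17, adjusted p = 0.0256) was lost in DESeq2 (adjusted p = 0.0548), without a filter (0.0601), and without untreated replicate 3 (-0.14, 0.129) or r-CRMP2 replicate 3 (-0.14, 0.133). The genes that follow SLC7A11 in this paragraph were named after their values were seen.

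Of the other sensors, ERN1 (IRE1, the ER kinase and RNase that splices XBP1) was at 3.60, 3.71 and 3.00 CPM in untreated and at 4.35, 5.46 and 5.75 CPM in r-CRMP2 libraries. It rose without overlap (0.60 ± 0.15, edgeR adjusted p = 0.00571). ATF6, the membrane-bound factor released by proteolysis, rose from 67.0, 64.3 and 65.1 CPM to 85.6, 82.7 and 82.9 CPM (0.35 ± 0.02, adjusted p = 6.58e-05). Its replicates were the tightest of the members. Under library size alone neither gene passed the test, with 0.29 for ERN1 (adjusted p = 0.148) and 0.0445 for ATF6 (adjusted p = 0.551).

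XBP1 was at 49.1, 50.5 and 52.1 CPM in untreated and 52.9, 48.9 and 47.6 CPM in r-CRMP2 libraries. Its groups overlapped and its log2 fold change was -0.02 ± 0.05 (edgeR adjusted p = 0.802), while library size alone gave -0.33 (adjusted p = 0.000881). Counts per gene do not separate its spliced from its unspliced form. Of 26 further regulators of these branches that were tested, 12 rose and 3 fell (MBTPS1, the protease that cuts ATF6, NFYC and EIF2B5), none beyond a log2 fold change of 1 in either direction. EIF2B5 (-0.18, adjusted p = 0.0352) lost its call with the replicate block (-0.18, adjusted p = 0.0528), with RLE size factors, in DESeq2, without a filter, and without untreated replicate 3 (-0.13, 0.192) or r-CRMP2 replicate 1 (-0.17, 0.0858), 2 (-0.17, 0.0576) or 3 (-0.18, 0.0834). Under library size alone 2 rose and 13 fell.

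**Figure D3:**
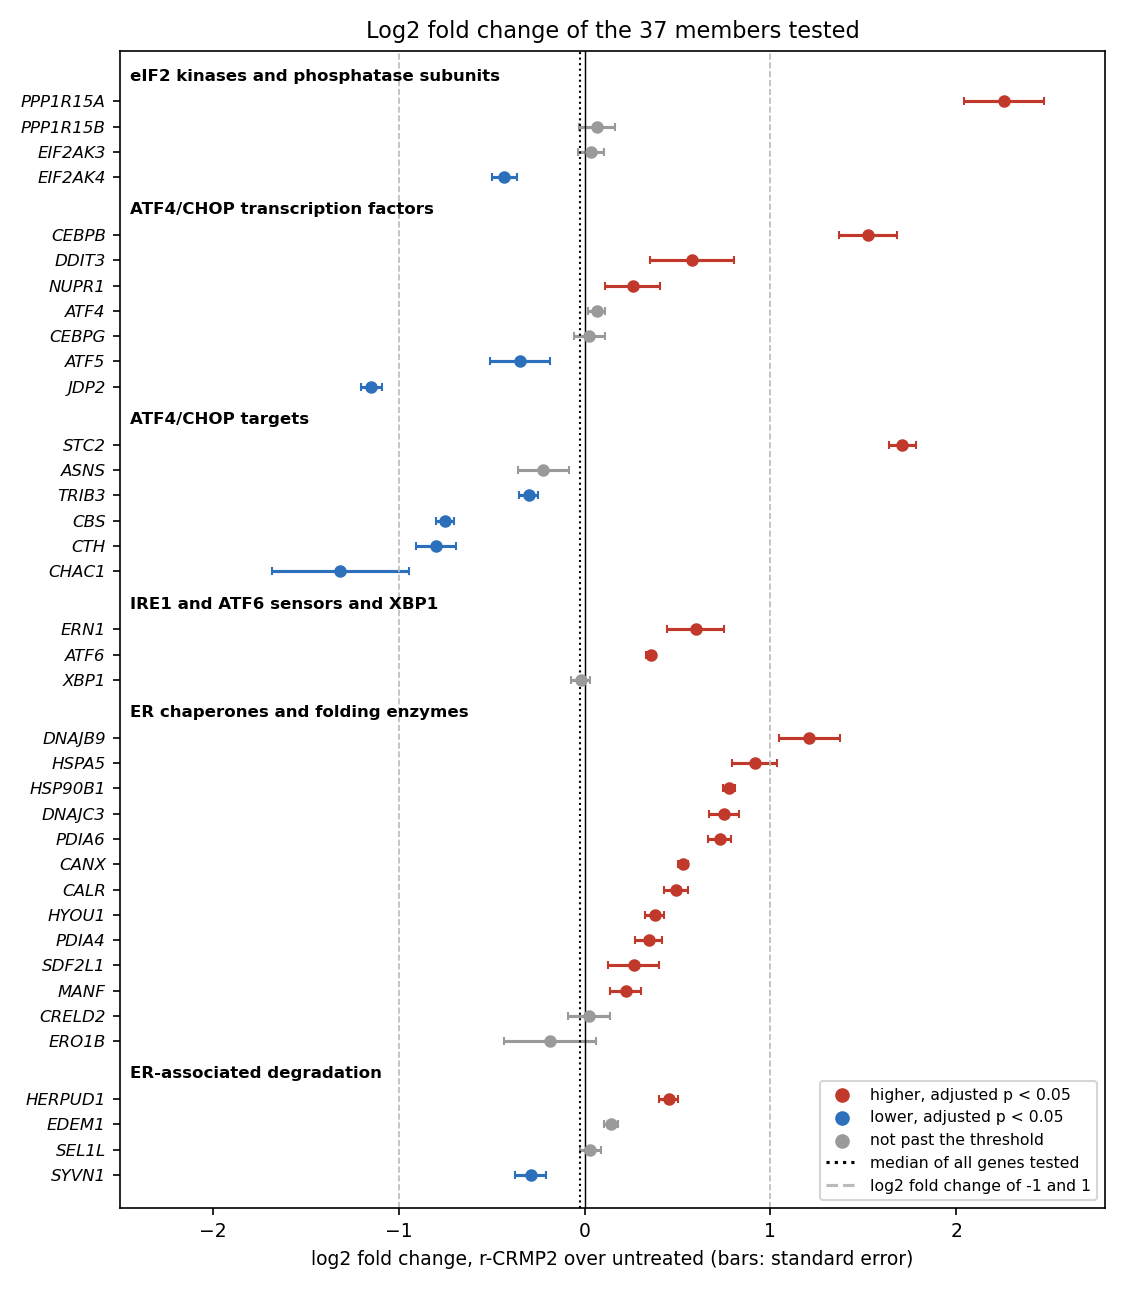
Log2 fold change (x axis, r-CRMP2 over untreated, TMM scaling, bars are standard errors, n = 3 per group) of the 37 members tested, grouped by class; red rose, blue fell, gray did not pass, and the dotted line is the median of all genes. Of 13 chaperones and folding enzymes 11 are red (7 under library size alone, where CRELD2 fell), whereas 4 of 6 ATF4/CHOP targets are blue (5 under library size alone).

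The chaperones and folding enzymes that passed the test all rose, except that CRELD2 fell under library size alone. HSPA5 (BiP, chr9:127997127-128003666, hg19), the ER Hsp70 that holds the sensors inactive, was at 536, 496 and 567 CPM without and 896, 1154 and 966 CPM with r-CRMP2. All treated values were above the untreated ones, with a log2 fold change of 0.92 ± 0.12 (edgeR adjusted p = 1.70e-08). HSP90B1 (chr12:104324112-104341708, hg19), the ER Hsp90, rose from 843, 816 and 812 CPM to 1381, 1467 and 1386 CPM (0.78 ± 0.03, adjusted p = 3.19e-09). Within-group spread was small beside this difference. DNAJB9 (chr7:108210189-108215294, hg19), a J-domain co-chaperone of BiP, was at 7.66, 6.72 and 8.55 CPM against 16.4, 21.1 and 15.8 CPM. It was the only folding gene beyond a log2 fold change of 1 (1.21 ± 0.17, adjusted p = 1.64e-07), although 0.90 under library size alone. In edgeR's test for a change beyond 2-fold, 0 of the 13 folding genes passed. DNAJB9 overlaps THAP5 on the opposite strand, and THAP5 fell by 0.71 on the log2 scale.

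The other folding genes that rose spanned a log2 fold change of 0.22 to 0.75. DNAJC3, a J-domain co-chaperone of BiP, rose by 0.75 ± 0.08 (edgeR adjusted p = 4.93e-07) and the disulfide isomerase PDIA6 by 0.73 ± 0.06 (adjusted p = 1.87e-08). PDIA6 overlaps ATP6V1C2 on the opposite strand, which was higher by 0.72. The lectin chaperones CANX and CALR, which hold glycoproteins during folding, rose by 0.53 ± 0.03 and 0.49 ± 0.06. HYOU1, a nucleotide exchange factor for BiP, rose by 0.38 ± 0.05 and the disulfide isomerase PDIA4 by 0.34 ± 0.07. Both lost the call under library size alone (0.066 and 0.033). An antisense RNA overlapping HYOU1 was at a mean of 9.04 CPM in untreated libraries and was higher by 0.33.

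The smallest rises were those of SDF2L1 and MANF. SDF2L1, a partner of the ER J-domain proteins, was at 35.5 to 40.3 CPM against 41.7 to 54.6 CPM (0.26 ± 0.14, edgeR adjusted p = 0.0203), and was not called without untreated replicate 2 (0.21, adjusted p = 0.110) or without r-CRMP2 replicate 2 (0.14, adjusted p = 0.122). MANF, a secreted ER stress factor that binds BiP, was at 94.9 to 102 CPM against 105 to 127 CPM (0.22 ± 0.08, adjusted p = 0.0114), and was not called without untreated replicate 2 (0.20, adjusted p = 0.0603). Under library size alone the sign of both turned (-0.049 and -0.090), as did their mean TPM. CRELD2, an ER protein of the disulfide-handling machinery, was at 41.8 to 46.1 CPM against 40.7 to 51.0 CPM (0.02 ± 0.11, adjusted p = 0.845), and fell by library size alone (-0.29, adjusted p = 0.00592). The oxidase ERO1B, which feeds oxidising equivalents to disulfide isomerases, had 24 to 57 counts per library (-0.19 ± 0.25, adjusted p = 0.602).

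No folding gene fell, also at an unadjusted p under 0.05 in edgeR and by adjusted p in DESeq2, but CRELD2 fell under library size alone, where 7 of the 13 rose. The r-CRMP2 replicate 2 had the highest level among the treated libraries for 12 of 13 folding genes, beside 37.1% of all genes tested. Without it 10 of 13 rose. Among the untreated libraries, replicate 1 was the highest for 9 of 13 folding genes (36.7% of all genes tested). Untreated replicate 2 was the highest for 0 (29.8% of all genes tested), and without it 9 of 13 rose. The heat map of the folding genes shows all 6 libraries.

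**Figure D4:**
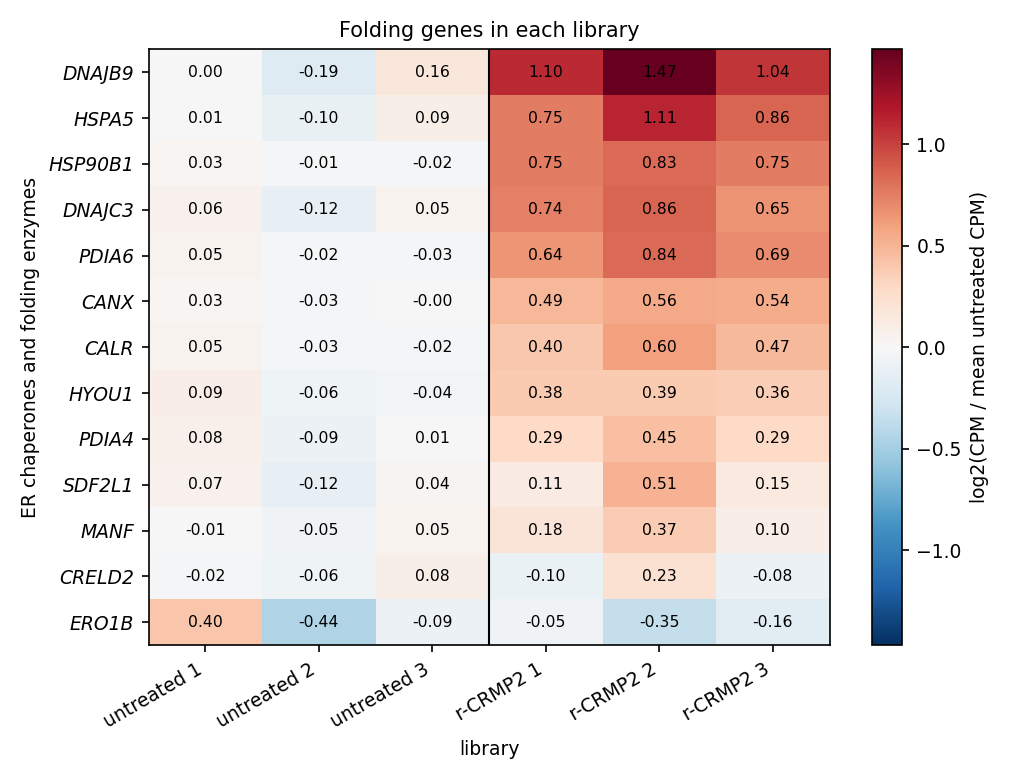
Log2 ratio of TMM-normalised CPM in each library (columns) to the mean of the 3 untreated libraries for the 13 folding genes (rows, ordered by log2 fold change); red is above and blue below the untreated mean. The 3 r-CRMP2 columns are above it for the 11 genes that rose (7 under library size alone), with r-CRMP2 replicate 2 the highest treated column in 12 of 13 rows.

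Per length, the folding class held the most abundant members. In untreated libraries CALR stood at 1420 ± 24.1 TPM (SD, n = 3), HSP90B1 at 701 ± 6.48 TPM, CANX at 416 ± 2.04 TPM and HSPA5 at 327 ± 20.8 TPM, with ATF4 (394 ± 9.10 TPM) between CANX and HSPA5. ERO1B was the lowest member, at 0.746 ± 0.210 TPM, next to VLDLR-AS1 (0.795 ± 0.716 TPM), which it did not differ from beyond their spread. The 13 folding genes together summed to 3998, 3890 and 3960 TPM in untreated and 4625, 4781 and 4624 TPM in r-CRMP2 libraries, a ratio of means of 1.18. The folding class did not stand out by this ratio. It was also 1.18 for the ATF4/CHOP targets, 1.31 for the ATF4/CHOP transcription factors and 1.29 for the eIF2 kinases and phosphatase subunits. For the sensors with XBP1 it was 0.85, and for ER-associated degradation 0.92. Within the target sum (158 to 187 TPM in the mean), STC2 went from 47.0 to 123 TPM. These sums carry no TMM factor.

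The ER stress response element, searched on both strands as CCAAT and CCACG with 9 unspecified bases between them, stood in the promoter windows of 25 of 27305 genes (0.0769% of windows), and 8 of these genes were members. They were the 7 folding genes HSPA5, HSP90B1, PDIA6, CALR, CANX, CRELD2 and ERO1B, and XBP1. Of the 8, 5 rose and 3 did not pass the test (CRELD2, ERO1B and XBP1). All 6 folding genes without a match rose, but under library size alone 2 of these 6 and 5 of the 7 with a match did. Their median log2 fold change was 0.36, beside 0.53 for those with one. A match describes these letters in this window and no more. No other spacing or arrangement of the ends was searched, so a gene without a match may hold another form. The elements are shown because most of this class rose. Capitals mark the fixed bases at either end, read on the strand that gives the motif, for genes that rose and then for those that did not pass. Where a gene has more than 1 listed start, as PDIA6 does, the distance is to a start whose window holds the element.
HSPA5, 66 bases before the start, chr9:125241381-125241419, minus strand: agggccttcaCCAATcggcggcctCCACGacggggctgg
HSP90B1, 194 bases before the start, chr12:103930206-103930244, plus strand: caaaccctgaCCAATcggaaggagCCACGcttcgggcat
HSP90B1, 89 bases before the start, chr12:103930311-103930349, minus strand: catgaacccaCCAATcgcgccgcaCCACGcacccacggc
PDIA6, 86 bases before the start, chr2:10812843-10812881, minus strand: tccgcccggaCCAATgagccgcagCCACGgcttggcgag
CALR, 225 bases before the start, chr19:12938374-12938412, minus strand: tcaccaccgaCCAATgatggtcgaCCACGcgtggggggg
CANX, 151 bases before 1 of its listed starts, chr5:179698768-179698806, plus strand: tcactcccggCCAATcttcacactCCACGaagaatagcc
CRELD2, 80 bases before the start, chr22:49918544-49918582, minus strand: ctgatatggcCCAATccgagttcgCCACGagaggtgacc
ERO1B, 243 bases before the start, chr1:236282173-236282208, plus strand: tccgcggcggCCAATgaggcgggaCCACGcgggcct
XBP1, 52 bases before the start, chr22:28800593-28800631, minus strand: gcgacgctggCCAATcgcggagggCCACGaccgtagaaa
HSP90B1 was the one member with the element at 2 places, in opposite orientations, and the 250 bases before its start (chr12:103930160-103930409, plus strand) show both in capitals.
HSP90B1 upstream: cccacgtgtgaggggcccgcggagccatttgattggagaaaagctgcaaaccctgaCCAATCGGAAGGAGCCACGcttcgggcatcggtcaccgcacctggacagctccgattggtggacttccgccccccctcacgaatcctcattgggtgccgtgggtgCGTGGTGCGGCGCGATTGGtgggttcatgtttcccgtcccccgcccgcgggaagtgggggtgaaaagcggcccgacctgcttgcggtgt

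Beyond the members, 28 other ER folding and translocation genes were tested, of which 16 rose and 4 fell (median 0.28), and under library size alone 9 rose and 12 fell. ERO1A, the oxidase related to ERO1B, rose from 114, 103 and 95.4 CPM to 285, 306 and 294 CPM. Its log2 fold change was 1.50 ± 0.08 (edgeR adjusted p = 2.37e-12), and it was the only gene of this list beyond 1. The 4 that fell were the translocation factor SEC62, the signal peptidase subunit SPCS3, the signal recognition particle receptor subunit SRPRB and TXNDC11, named after their values were seen. The call of SRPRB (-0.21, adjusted p = 0.0201) was lost in DESeq2 (adjusted p = 0.0527) and without untreated replicate 1 (-0.20, 0.0502), untreated replicate 3 (-0.18, 0.0964) or r-CRMP2 replicate 1 (-0.16, 0.108).

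ER-associated degradation carries misfolded proteins to the proteasome. Of its 4 members 1 rose and 1 fell (25.0% each), near the 28.2% and 30.1% of all genes tested. HERPUD1, an ER membrane protein that recruits the degradation machinery, rose from 60.4, 62.7 and 65.5 CPM to 84.2, 90.7 and 83.1 CPM without overlap (0.45 ± 0.05, edgeR adjusted p = 7.91e-06). Under library size alone it was 0.14 and did not pass (adjusted p = 0.0706). SYVN1, the ubiquitin ligase of this pathway, fell from 50.9 to 56.3 CPM down to 39.8 to 46.9 CPM (-0.29 ± 0.08, adjusted p = 0.00274). It overlaps MRPL49 on the opposite strand, which was lower by 0.22. SEL1L, the adaptor that holds SYVN1 in the complex, was at 52.2 to 53.6 CPM against 50.5 to 57.9 CPM (0.03 ± 0.06, adjusted p = 0.728), but passed as lower by library size alone (-0.28, adjusted p = 0.00377).

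EDEM1, which marks glycoproteins for degradation, was at 93.1 to 99.7 CPM against 104 to 108 CPM, without overlap, and stayed just outside the threshold (0.14 ± 0.04, edgeR adjusted p = 0.0545). It passed in DESeq2 and with RLE size factors (both 0.16, adjusted p = 0.0337) and without untreated replicate 1 (0.17, adjusted p = 0.0399), r-CRMP2 replicate 1 (0.17, 0.0477) or r-CRMP2 replicate 2 (0.16, 0.0304), and under library size alone its sign turned (-0.17, adjusted p = 0.0213). Of 20 other degradation genes tested 5 rose and 5 fell (25.0% each), also near the shares of all genes tested. Under library size alone 2 of them rose and 15 fell. DERL3, a derlin of the retrotranslocation channel, rose from 1.33, 2.32 and 1.79 CPM to 4.31, 4.95 and 4.62 CPM (1.36 ± 0.23, adjusted p = 1.68e-05).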

How the data were processed

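The authors deposited, for each of 6 libraries, whole-number read counts per gene without normalization and TPM values. The deposited TPM values followed from the counts and gene lengths to within 4.72e-06 and were used for levels between genes. The submitters' processing notes name FastQC, HISAT2, DESeq2 and build hg19, without versions or roles. The counting tool, the annotation and the use of strand are not given in the sources used here.

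Counts of all genes were compared with edgeR 4.0.16 (limma 3.58.1, R 4.3.3): TMM normalization, filterByExpr (16222 of 44591 genes kept), quasi-likelihood test, two-sided, Benjamini-Hochberg adjustment. Standard errors came from replicate log2 CPM (prior count 2). The method was checked on simulated counts. Alternatives were RLE size factors, library size alone, DESeq2 1.42.0, no filter, at least 10 counts in every library, a replicate block, a test against a fold change of 2, and leaving out each library. Members and lists were chosen with earlier results of these data known. Per-library values were given for members past both thresholds and for preset markers of each branch. Of each further list, up to 5 genes past both thresholds were named. RefSeq promoters (GRCh38.p14) matched 37 of 38 members. Of the members, 9 overlap another gene with a mean untreated level of at least 1 CPM, all on the opposite strand.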

Additional observations from a re-analysis of the deposited data

How the results depend on the processing

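Under library size alone, 10 members were higher and 17 lower, and 4 were lower past both thresholds. The class medians became -0.26 for the eIF2 kinases and phosphatase subunits, -0.25 for the ATF4/CHOP transcription factors, -0.84 for the ATF4/CHOP targets, 0.0445 for the sensors with XBP1, 0.18 for the folding genes and -0.22 for ER-associated degradation. Of 38 single genes 20 kept direction and call. The sign turned for ATF4 (-0.25), CEBPG (-0.29), PPP1R15B (-0.24), EIF2AK3 (-0.28), SDF2L1 (-0.049), CRELD2 (-0.29), MANF (-0.090), EDEM1 (-0.17), SEL1L (-0.28) and NUPR1 (-0.053). This scaling shifts all genes by -0.31. In the other lists it left 12 of the further ATF4/CHOP targets lower, 9 of the further folding genes higher and 12 lower, 2 of the further degradation genes higher and 15 lower, and 2 of the further regulators higher and 13 lower. When edgeR's glmTreat tested for a change beyond 2-fold, 3 members were higher (PPP1R15A, CEBPB and STC2) and 0 lower. DNAJB9, CHAC1 and JDP2 did not pass it. At an unadjusted p under 0.05, 1 folding gene was higher and 1 member lower. Leaving out each library in turn gave 16 to 19 members higher, 7 to 9 lower, 4 to 5 higher and 2 lower past both thresholds, and folding medians of 0.45 to 0.55 and target medians of -0.55 to -0.48. The sign varied among genes near 0, with log2 fold changes of -0.030 to 0.087 for CEBPG, -0.055 to 0.014 for XBP1, -0.080 to 0.089 for CRELD2, -0.011 to 0.083 for SEL1L and -0.36 to 0.069 for ERO1B. The cause was not tested. Of 38 single genes, DESeq2 and RLE size factors left 36 and 37 on the same side of the threshold, the stricter filter 37, and no filter all 38. With the replicate block, 19 members were higher and 8 lower and the folding median was 0.49, with no member's call changed, but EIF2B5 of the further regulators lost its call (adjusted p = 0.0528). Replicate numbers gave correlations of -0.02, 0.0038 and -0.03 between same-numbered libraries, so no pairing was evident. At 14 counts in its lowest libraries, CHAC1 was the least precise call.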

Other observations

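Outside the 38 members, the same promoter motifs stood in a few of the further pathway genes. SERP1, which protects new membrane proteins at the translocon, held the ER stress response element and rose from 95.5 to 102 CPM up to 115 to 132 CPM (log2 fold change 0.31 ± 0.07, edgeR adjusted p = 0.000485). The C/EBP-ATF element stood in 6 of these genes. SLC3A2, the heavy chain of several amino acid transporters, rose from 443 to 465 CPM up to 663 to 767 CPM (0.67 ± 0.07, adjusted p = 5.77e-08), ATF3 (0.36 ± 0.19, adjusted p = 0.0176) and CREB3L2 (0.35 ± 0.03, adjusted p = 4.92e-05) rose, and SRPRB fell (-0.21 ± 0.06, adjusted p = 0.0201). The groups overlapped for ATF3, whose call was lost without untreated replicate 1 (0.24, adjusted p = 0.113) or r-CRMP2 replicate 2 (0.26, adjusted p = 0.0921), and SRPRB lost its call in DESeq2 and without any 1 of 3 libraries. SLC7A1 did not pass the test (adjusted p = 0.995), and FGF21 was too low to be tested. The element TGACGTGG, in 0.729% of all windows, stood in HYOU1 among the members and in 7 further genes. TXNDC5 (0.53 ± 0.08, adjusted p = 2.00e-06) and SSR3 (0.23 ± 0.07, adjusted p = 0.00594) rose, while VCP (-0.40 ± 0.03, adjusted p = 1.04e-05), SEC62 (-0.44 ± 0.03, adjusted p = 1.49e-05) and TXNDC11 (-0.31 ± 0.06, adjusted p = 0.00315) fell, and DNAJC10 and UBE2J1 did not pass the test. Genes that shared either of the last 2 motifs thus moved in both directions. With scaling by library size alone, SLC3A2 and TXNDC5 were the only ones of these genes that rose, and the sign of SSR3 turned (-0.085).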
